A study of Mus musculus with 8 samples.

Results

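The TRAV12 family, known as Valpha8 in the older mouse nomenclature, supplied the alpha-chain V region of about 1 in 9 clones of brain T cells in both genotypes, and its labels split along the J array by the copy of the locus they came from. Its members were chosen by name: every productive TRA contig whose V segment was TRAV12-1, TRAV12-2 or TRAV12-3, or one of the copies TRAV12D-1 to TRAV12D-3 and TRAV12N-1 to TRAV12N-3. These 9 segment names took 677 of 5997 TRA contigs, carried by 671 of 5488 cells with a TRA chain and by 422 of 3721 clones. A clone is a clonotype of the deposited tables with at least 1 TRA chain, and a cell is a barcode.

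A T cell receptor alpha chain is built by joining 1 of many V segments to 1 of many J segments, and bases are trimmed and added at the junction. The V segment encodes the CDR1 and CDR2 loops, which mostly touch the MHC molecule, and the junction encodes CDR3, which mostly touches the peptide. The mouse alpha locus holds a central block of V segments that has been duplicated, so that several families exist as an original copy and as D and N copies. Alpha rearrangement can occur repeatedly on the same chromosome, each round joining a V segment farther from the J array to a J segment farther down it.

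The libraries were made from CD45+ immune cells sorted from brain parenchyma of C57BL/6 mice. The 5xFAD group carried the 5xFAD transgenes, which drive amyloid deposition and are expressed from the neuronal Thy1 promoter, and the 5xFAD;Cxcr6-/- group carried the same transgenes on a background lacking the chemokine receptor CXCR6. Both groups therefore share the amyloid transgenes, and no library without them was analysed here. Age, sex and the number of mice behind a library are not given in the sources used here. Of 8 samples, the 4 receptor libraries were analysed (2 of each genotype). The other 4, from gene expression, were not used here, so neither Cxcr6 nor markers of T cell subsets could be checked. P-values therefore measure the spread between libraries, which may be technical.

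The 5xFAD libraries held 2069 and 2522 barcodes with 32169 and 34772 UMIs, and the 5xFAD;Cxcr6-/- libraries held 765 and 1330 barcodes with 13460 and 22340 UMIs. Clones with a TRA chain numbered 1061 and 1274 for 5xFAD, and 485 and 901 for 5xFAD;Cxcr6-/-. The median TRAV12 contig rested on 4 to 5 UMIs, and the median of other TRA contigs was 4 in every library. Across libraries, 28 barcodes recurred among 6658, and 0 of them carried the same TRAV12 chain in both. Cells with the TRAV11 and TRAJ18 chain of invariant natural killer T cells, called iNKT-like here, made up 19.98% and 12.8% of the clones of the 5xFAD libraries but 5.15% and 2.44% of those lacking CXCR6. They enter the total behind each share of all clones or of all cells, unless they are said to be left out. Comparisons of TRAV12 with other chains leave iNKT-like chains out.

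The V regions of the 6 labels seen are shown first because they decide which copies can be told apart. All contigs of a label shared exactly 1 sequence from the start of framework 1 to the end of framework 3, over 267 to 270 bases, and each sequence equalled a GENCODE vM21 gene without a mismatch. The stretch from CDR1 to the end of CDR2 follows, with both loops in capitals and framework 2 in lower case.
TRAV12-1: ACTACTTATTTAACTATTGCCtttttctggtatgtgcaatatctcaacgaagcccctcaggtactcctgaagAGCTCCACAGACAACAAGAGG
TRAV12-2: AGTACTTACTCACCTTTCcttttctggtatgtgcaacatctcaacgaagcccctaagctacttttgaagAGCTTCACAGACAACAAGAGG
TRAV12-3: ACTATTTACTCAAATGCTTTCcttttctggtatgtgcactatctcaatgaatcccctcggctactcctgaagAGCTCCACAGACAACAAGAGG
TRAV12D-1: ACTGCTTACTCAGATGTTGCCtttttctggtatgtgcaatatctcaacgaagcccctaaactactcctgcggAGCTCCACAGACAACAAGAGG
TRAV12D-2: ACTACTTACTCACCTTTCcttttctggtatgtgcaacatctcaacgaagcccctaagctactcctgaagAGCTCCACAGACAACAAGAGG
TRAV12D-3: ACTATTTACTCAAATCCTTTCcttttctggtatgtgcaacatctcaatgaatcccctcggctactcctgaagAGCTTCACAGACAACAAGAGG
Translated, the CDR1 loops read TTYLTIA, STYSPF and TIYSNAF for TRAV12-1, TRAV12-2 and TRAV12-3, and TAYSDVA, TTYSPF and TIYSNPF for TRAV12D-1, TRAV12D-2 and TRAV12D-3. CDR2 was SSTDNKR in 4 labels and SFTDNKR in TRAV12-2 and TRAV12D-3. CDR1 is therefore different in each label, while CDR2 falls into a pair of forms that cut across the copies.

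No contig carried an N label, and the reference sequences show that the D and N names cannot be separated from these bases. TRAV12D-1, TRAV12D-2 and TRAV12D-3 are identical to TRAV12N-1, TRAV12N-2 and TRAV12N-3 over the whole V region, and their annotated transcripts are identical over 436, 454 and 347 bases. A D label in the deposited tables may therefore stand for the D or the N copy, and "D-labelled" is used in that sense below. The original segments matched 1 gene each, and pairs of labels were 91.9% to 96.7% identical, the closest being TRAV12-3 and TRAV12D-3 at 96.7% and TRAV12-2 and TRAV12D-2 at 96.3%.

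All 9 genes lie on the plus strand of chromosome 14 (GRCm38, the build that mm10 names) and are annotated as TR_V_gene. TRAV12D-1 (52844465 to 52845041), TRAV12D-2 (52915799 to 52916426) and TRAV12D-3 (52929789 to 52930282) lie 1312, 1241 and 1227 kb before TRAJ58, the J segment nearest to the V segments. TRAV12N-1 (53155512 to 53156088), TRAV12N-2 (53226773 to 53227400) and TRAV12N-3 (53240745 to 53241244) lie 1001, 930 and 916 kb before it. TRAV12-1 (53538191 to 53538738), TRAV12-2 (53616315 to 53616914) and TRAV12-3 (53621657 to 53622245) are the closest, at 619, 540 and 535 kb. A D-labelled chain thus came from a segment farther from the J array than any original TRAV12 segment, whichever of its copies was used.

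The family kept a similar share of clones in both genotypes. Among 5xFAD clones TRAV12 made up 10.8% (115 clones, 95% Clopper-Pearson interval 9.03 to 12.9) and 10.99% (140 clones, 9.32 to 12.8). Among 5xFAD;Cxcr6-/- clones it made up 10.1% (49 clones, 7.57 to 13.1) and 13.1% (118 clones, 10.96 to 15.5). The 5xFAD;Cxcr6-/- values lay on either side of both 5xFAD values. The means were 10.9% ± 0.106 and 11.6% ± 2.12 (SD, n = 2 each), a difference of 0.69 percentage points that was within the spread between libraries (exact two-sided permutation p = 1, where 0.333 is the smallest p that 2 against 2 allows). By mean share of clones TRAV12 ranked 3 of 19 TRAV families, after TRAV6 and TRAV7.

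Counted by cells, TRAV12 stood at 12.4% (exact 95% interval 10.9 to 14.1) and 11.9% (10.5 to 13.4) for 5xFAD. The 5xFAD;Cxcr6-/- libraries held 9.57% (7.41 to 12.1) and 14.02% (12.04 to 16.2), again with overlapping groups (difference -0.38 percentage points, exact permutation p = 1). When the iNKT-like clones were left out of the total, the shares of clones became 13.5% and 12.4% in 5xFAD and 10.4% and 13.4% in 5xFAD;Cxcr6-/-. The difference then turned to -1.05 percentage points (exact permutation p = 0.667). The direction of the family difference therefore depended on whether these clones were part of the total.

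In edgeR's quasi-likelihood test over the 19 families, in which 5.26% of families were called at an adjusted p of 0.05, TRAV12 was not called (log2 fold change of 0.12 with an SE of 0.16 and an edgeR adjusted p of 0.799). Of the 13 other families that also have D or N copies, 1 fell (TRAV11) and 0 rose. The log2 fold changes of the remaining 12 ranged from -0.07 to 0.43. The median of the 13 was 0.18, the same as over all 19 families.

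Among the members, TRAV12-2 was the most used and TRAV12D-1 the least. TRAV12-2 ranked 4 of 88 TRAV labels by mean share of clones, followed by TRAV12D-3 at 9, TRAV12D-2 at 21, TRAV12-1 at 29, TRAV12-3 at 30 and TRAV12D-1 at 68. TRAV12-2 was used by 2.92% and 3.30% of 5xFAD clones, and by 5.15% and 3.88% of 5xFAD;Cxcr6-/- clones. Both 5xFAD;Cxcr6-/- values were above both 5xFAD values, with means of 3.11% ± 0.265 and 4.52% ± 0.898 (SD, n = 2). Such a gap is common here, since the groups failed to overlap for 38.2% of the 152 segments tested. The total also holds iNKT-like clones. Without them the log2 fold change of TRAV12-2 in edgeR was 0.28 (SE 0.24), against 0.48 with them.

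TRAV12D-3 was used by 2.83% and 2.35% of 5xFAD clones, and by 1.86% and 3.44% of 5xFAD;Cxcr6-/- clones. TRAV12D-2 was used by 1.79% and 1.88% against 0.619% and 2.33%, the last 2 values coming from 3 and 21 clones. In both D-labelled segments the 5xFAD;Cxcr6-/- libraries bracketed the 5xFAD libraries. TRAV12-1 stood at 1.32% and 1.81% against 1.03% and 1.55%, and TRAV12-3 at 1.70% and 1.26% against 1.24% and 1.44%, so that these segments did not differ from each other beyond the spread between libraries. TRAV12D-1 rested on 18 clones in all, from 1 in 5xFAD;Cxcr6-/- library 1 to 7 in 5xFAD library 2, and its shares ran from 0.206% to 0.555%.

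**Figure D1:**
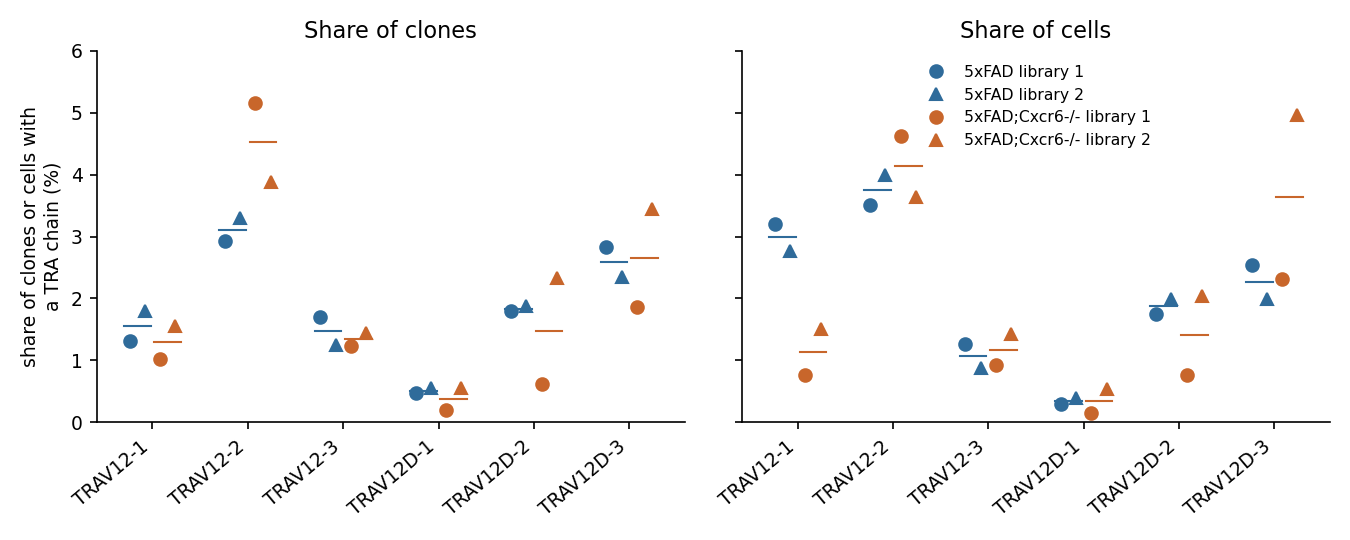
Share of clones (left) and of cells (right) with a TRA chain, in percent, for each TRAV12 label seen; each point is 1 library and each horizontal line the mean of 2 libraries of a genotype. TRAV12-2 is the most used label by clones in all 4 libraries, closely followed in 5xFAD library 1 by TRAV12D-3 (2.92% and 2.83%), and TRAV12-1 by cells is higher in both 5xFAD libraries.

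None of the 6 labels seen was called between genotypes. The edgeR test covered 152 TRA and TRB segments with at least 10 clones, of which 1.32% were called, both outside the family (TRAV11 and TRAJ18), and 9 had an unadjusted p under 0.05. TRAV12-2 had the smallest p of the family, at 0.48 on the log2 scale, with an SE of 0.24 and an edgeR adjusted p of 0.751. Over 13 alternatives its fold stayed above 0, from 0.01 with cells counted in place of clones to 0.72, and its adjusted p ran from 0.490 upwards. The other 5 lay between -0.24 (TRAV12D-1, SE 0.84) and 0.15 (TRAV12D-3, SE 0.30), each within 1 SE of 0.

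**Figure D2:**
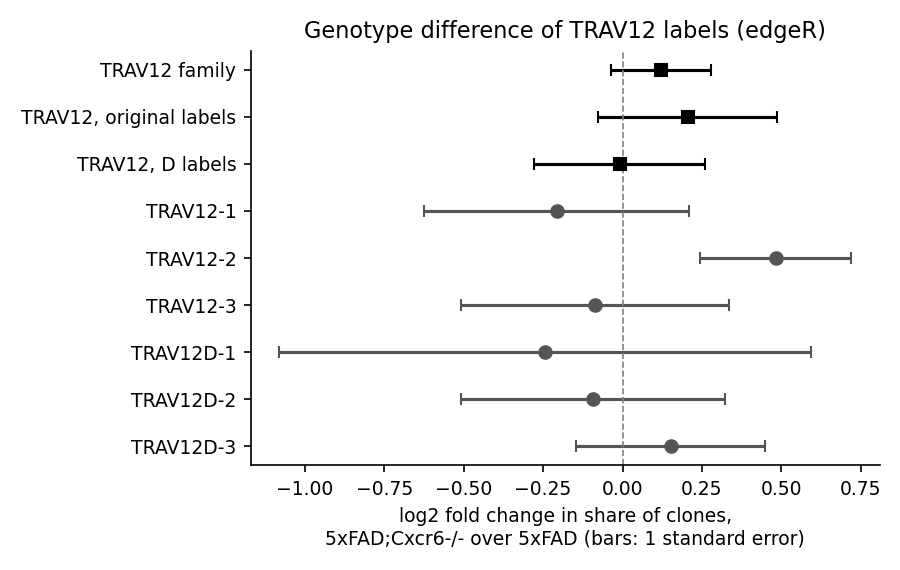
Log2 fold change in the share of clones, 5xFAD;Cxcr6-/- over 5xFAD, for the TRAV12 family, its original and D-labelled sets and each label. Bars are 1 standard error, derived from the fold change and the F statistic of edgeR. The bar of TRAV12-2 (0.48, SE 0.24) is the only one that clears 0 by more than its standard error, and no label was called.

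The original copies and the D-labelled copies took similar parts of the family except in the smallest library. D-labelled clones numbered 53 and 60 in 5xFAD and 13 and 56 in 5xFAD;Cxcr6-/-, against 63, 81, 36 and 62 clones with an original segment in the same order. This put the D-labelled share of TRAV12 clones at 46.1% (95% Clopper-Pearson interval 36.8 to 55.6), 42.9% (34.5 to 51.5), 26.5% (14.9 to 41.1) and 47.5% (38.2 to 56.9). Library 1 of 5xFAD;Cxcr6-/- lay below the other 3, with an interval that overlaps theirs. Of 40 copy sets of all families, edgeR called 2.5%, and neither TRAV12 set was among them: the original set differed by 0.21 on the log2 scale (SE 0.28, edgeR adjusted p = 0.890). The D-labelled set differed by -0.01 (SE 0.27, edgeR adjusted p = 0.986).

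By share of all clones the original set did not overlap between genotypes, at 5.94% and 6.36% in 5xFAD and 7.42% and 6.88% in 5xFAD;Cxcr6-/-. By share of cells it was separated in the opposite direction, at 7.97% and 7.63% against 6.33% and 6.57%. The groups did not overlap for 42.5% of the copy sets by clones and for 47.5% by cells, so such separation is common here. The share of all clones also has iNKT-like clones in its total. Without them the log2 fold change of the original set was -9.06e-05 (SE 0.19), against 0.21 with them. Of the 3 original segments, TRAV12-1 was the one separated by cells. It stood at 3.20% and 2.77% of 5xFAD cells, and at 0.772% and 1.51% of 5xFAD;Cxcr6-/- cells. Without its largest clone in each library the 4 values were 2.38%, 1.14%, 0.618% and 1.33%, and the genotypes overlapped. By cells, 34.6% of segments had groups that did not overlap. TRAV12-2, at 3.50%, 3.99%, 4.63% and 3.64% of cells, overlapped between genotypes. TRAV12D-3 did so too, at 2.54%, 1.99%, 2.31% and 4.97%, the last of which holds a clone of 25 cells among 56. D-labelled chains were carried by 36.4%, 36.3%, 33.9% and 53.2% of TRAV12 cells, so the library with the highest D-labelled part of clones also had the highest part of cells.

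The position of the J segment separated the copies. TRAJ segments are numbered downwards along the chromosome, from TRAJ58 (chromosome 14, 54157280 to 54157342) to TRAJ2 (54217836 to 54217901), so that a low number means a J segment far from the V segments. Chains with an original TRAV12 segment had a mean TRAJ number of 31.7, 32.6, 33.8 and 34.2 in the 4 libraries, 5xFAD first. D-labelled chains had means of 23.8, 22.4, 17.9 and 24.8. The D-labelled mean was lower in 4 of 4 libraries, and the sets did not overlap.

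The difference was -7.85 and -10.2 in 5xFAD and -15.9 and -9.41 in 5xFAD;Cxcr6-/-, a mean of -10.8 ± 3.51 (SD, n = 4). A sign-flip test over 4 libraries gave an exact two-sided permutation p of 0.125, the smallest it allows. The difference ran from -12.9 to -9.14 over 9 alternatives, all below 0. In 5xFAD;Cxcr6-/- library 1 it rested on 13 D-labelled chains, 3 of which were the same TRAJ2 chain. With each nucleotide CDR3 counted once per library, the mean difference was -10.3.

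Over all libraries pooled, the 3 original labels had higher mean TRAJ numbers than the 3 D labels. Over all libraries TRAV12-3 had a mean TRAJ number of 34.7 (53 chains), TRAV12-2 of 33.5 (133 chains) and TRAV12-1 of 29.9 (56 chains). TRAV12D-1 stood at 25.8 (18 chains), TRAV12D-2 at 25.2 (68 chains) and TRAV12D-3 at 21.5 (100 chains). Neighbours in this order overlapped between libraries, also across the copies. TRAV12D-1 ranged from 21.1 to 43 and lay above TRAV12-1 in both 5xFAD;Cxcr6-/- libraries, at 43 (1 chain) against 28.8 and at 30.6 (5 chains) against 27. The other neighbours overlapped too: TRAV12-2 ranged from 30.2 to 35.2 and TRAV12-3 from 31.7 to 39.1, and TRAV12D-3 from 17.4 to 23.97 and TRAV12D-2 from 11 to 27.3. TRAV12-1, the original segment farthest from the J array, ranged from 27 to 32.7 and was below TRAV12-3 in all 4 libraries. Among the pooled D labels, TRAV12D-1 had the highest mean (25.8, 18 chains) and TRAV12D-3 the lowest (21.5). These labels cannot be ordered by distance, because each may stand for its D or its N copy. The copies lie 1312 or 1001 kb before TRAJ58 for TRAV12D-1 and 1227 or 916 kb for TRAV12D-3. Whether TRAJ number follows distance within the D labels therefore cannot be read from these chains.

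With the J array split in 3 stretches, the last, TRAJ20 to TRAJ2, took 13.9% ± 7.82 of original chains and 40.3% ± 9.98 of D-labelled chains (SD, n = 4). The first, TRAJ58 to TRAJ40, took 33.1% ± 1.77 and 10.3% ± 4.75. The middle stretch, TRAJ39 to TRAJ21, took 53.0% ± 9.17 and 49.4% ± 8.36, a difference within their spread. In the last stretch the original set ran from 8.33% to 25.4% and the D-labelled set from 29.8% to 53.8%, without overlap.

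**Figure D3:**
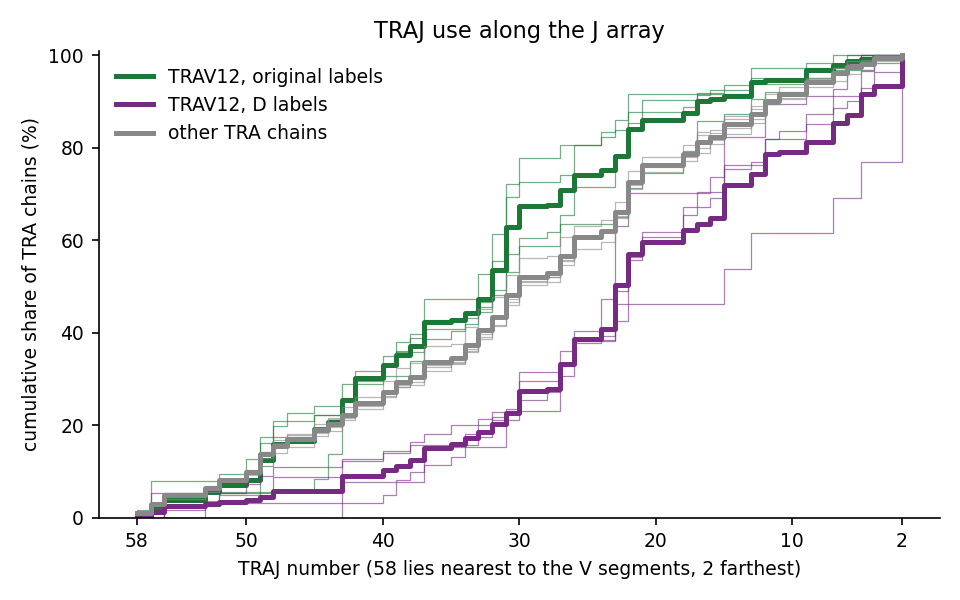
Cumulative share of TRA chains, in percent, along the J array from TRAJ58 to TRAJ2, for chains with an original TRAV12 segment, D-labelled TRAV12 chains and other TRA chains without the iNKT-like ones; thick lines are means of 4 libraries and thin lines single libraries. The D-labelled curve rises later, with 40.3% of its chains at TRAJ20 or beyond against 13.9% of the original set, and the thin line that is lowest at the right is 5xFAD;Cxcr6-/- library 1 with 13 chains.

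No single J segment passed the test between the copies. TRAJ15, in the last stretch, was used by 7.27%, 4.92%, 7.69% and 8.77% of D-labelled chains and by 1.59%, 0%, 0% and 1.61% of original chains. TRAJ31, in the middle, was used by 1.82%, 0%, 7.69% and 0% of D-labelled chains and by 7.94%, 4.94%, 16.7% and 8.06% of original chains. In an edgeR test with the library as a block, 0 of 20 J segments with at least 10 TRAV12 chains were called, a background of 0%, and 5 had an unadjusted p under 0.05. TRAJ15 was higher in D-labelled chains by 2.73 on the log2 scale (SE 0.91) and TRAJ31 differed by -2.55 (SE 0.91), both at an edgeR adjusted p of 0.0712. TRAJ12 (2.99, SE 1.31, higher in D-labelled chains), TRAJ42 (-4.31, SE 1.73) and TRAJ49 (-2.87, SE 1.21) had an edgeR adjusted p of 0.103. TRAJ42 was used by 11 original and 0 D-labelled chains, so its fitted fold is no bound. These 5 were named after their values were seen.

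The split was also present in other families. In the 12 other families with at least 10 chains of each kind, chains with a D or N label had a lower mean TRAJ number than original chains. With the 12 families pooled, the difference was -10.7, -9.61, -10.02 and -9.25 in the 4 libraries. The TRAV12 difference minus this one was -0.92 ± 3.64 (SD, n = 4; exact sign-flip permutation p = 0.625). Over all libraries, the families ranged from -18.5 in TRAV16 to -3.36 in TRAV8, and TRAV12, at -9.70, was 6 of 13 in that order.

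**Figure D4:**
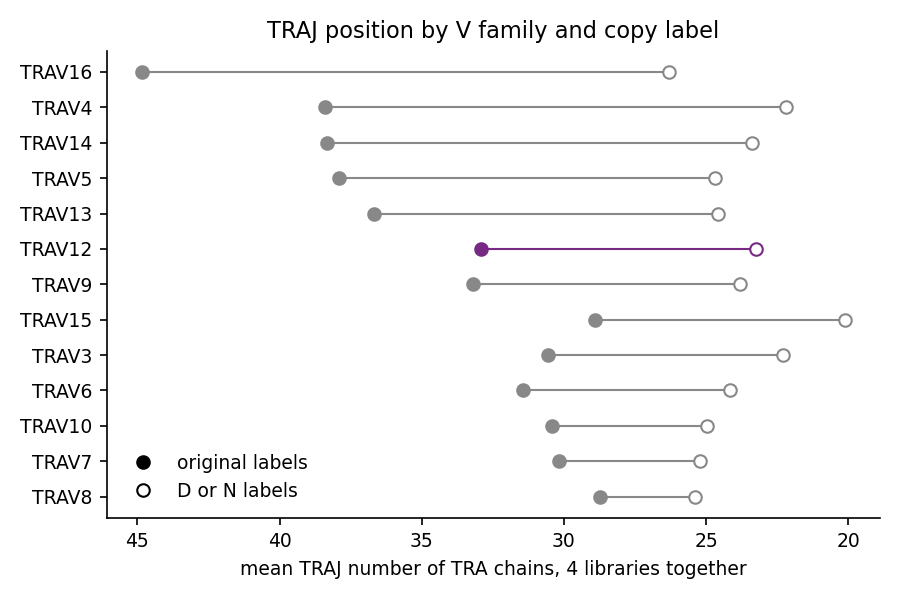
Mean TRAJ number of chains with original labels (filled) and with D or N labels (open) in each TRAV family with at least 10 chains of both kinds, 4 libraries together, ordered by the difference; the axis runs from V-proximal J segments at the left to distal ones at the right. Open circles lie to the right of filled ones in all 13 families, and TRAV12 (purple, 32.9 and 23.2) lies in the middle of the order.

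Against all other TRA chains the family as a whole differed little in TRAJ use. Its mean TRAJ number was 28.03, 28.2, 29.6 and 29.7, compared with 29.3, 29.7, 30.05 and 31.0 for other chains. TRAV12 was lower in 4 of 4 libraries, by a mean of 1.15 positions (difference -1.15 ± 0.480, SD, n = 4; exact sign-flip permutation p = 0.125). The difference was -0.31 among chains with at least 3 UMIs (exact sign-flip permutation p = 0.5) and -1.75 with medians in place of means (p = 0.375 by the same exact test). Within TRAV12 both 5xFAD libraries had lower means than both 5xFAD;Cxcr6-/- libraries, and the same was true of other chains. Its most used J segments were TRAJ31 (6.60% ± 5.21), TRAJ22 (6.58% ± 3.36) and TRAJ23 (5.84% ± 1.87), which other chains used at 4.69%, 6.49% and 4.24%. edgeR called 0 of 43 J segments, a background of 0%, with 0 at an unadjusted p under 0.05, and DESeq2 also called 0.

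CDR3 lengths of TRAV12 chains were close to those of other chains. The mean was 13.7, 13.8, 13.6 and 13.5 residues in the 4 libraries, against 13.6, 13.7, 13.7 and 13.7, a difference of 0.002 ± 0.123 residues (SD, n = 4; exact sign-flip permutation p = 1). Lengths of 13 and 14 residues were the most common, with 92 and 123 of 428 chains. CALS opened 44.4% to 60.7% of chains in each label, and CALR 8.93% to 22.6%.

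In 4 of 4 libraries TRAV12 chains had lost more germline V bases on average than other chains, a difference that a test on 4 libraries cannot resolve. The germline segments run 14 bases from the CDR3 start, tgtgctctgagtga in TRAV12-1, TRAV12-3, TRAV12D-1 and TRAV12D-3 and tgtgctttgagtga in TRAV12-2 and TRAV12D-2. TRAV12 chains had lost a mean of 2.83, 2.76, 2.29 and 2.75 of these, while other chains had lost 1.87, 1.85, 1.97 and 1.83 of theirs, whose germline ends have a median of 13 bases (mean 13.7, range 12 to 19). By the median, other chains thus had 1 base fewer to lose, and by the mean less than 1 base fewer. The part of this in the difference was not tested. The difference was 0.78 ± 0.308 bases, above 0 in 4 of 4 libraries (exact sign-flip permutation p = 0.125). Bases lost from J and bases in neither segment showed no common direction, with mean differences of -0.04 ± 0.211 and -0.01 ± 0.310. The mean hydrophobicity of the CDR3 core on the Kyte-Doolittle scale was lower in TRAV12 by 0.02 to 0.12 units in 4 of 4 libraries (mean difference -0.07 ± 0.0389, exact sign-flip permutation p = 0.125). Net charge had no common direction.

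Few TRAV12 CDR3 sequences recurred across libraries. Of 388 amino-acid sequences 17 (4.38%) were found in at least 2 libraries, compared with 161 of 2928 (5.50%) among other chains, and 6 of 410 nucleotide sequences were. The set of other chains is larger and spans many families, so these percentages do not have an equal base. One, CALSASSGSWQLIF joined to TRAJ22, was present in 3 libraries, through 3 V labels and 3 nucleotide sequences. They are shown because the same protein loop arose from different segments, with bases that neither germline end encodes in capitals.
TRAV12-1: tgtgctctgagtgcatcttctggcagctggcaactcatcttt
TRAV12-2: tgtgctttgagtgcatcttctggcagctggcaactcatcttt
TRAV12D-2: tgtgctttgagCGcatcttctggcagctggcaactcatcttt
The TRAV12-1 form was in 5xFAD library 2, the TRAV12-2 form in 5xFAD library 1 and 5xFAD;Cxcr6-/- library 1, and the TRAV12D-2 form in 5xFAD library 1, each in 1 cell per library. Another, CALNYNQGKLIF with TRAJ23, was made with TRAV12-1, TRAV12D-2 and TRAV12D-3 in 2 libraries. Chains found in at least 2 libraries had a median of 2 non-germline bases and 25% had 0, while those in 1 library had a median of 3 and 11.5% had 0. This is a description of the shared chains, with no test.

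No TRB partner was called as more or less common in TRAV12 clones than in other clones. Of clones with exactly 1 TRB chain that were not iNKT-like, 390 carried TRAV12 and 2597 did not. The label TRBV12-2+TRBV13-2 was paired with 9.14% ± 3.26 of TRAV12 clones and 8.45% ± 1.47 of others (SD, n = 4), TRBV13-3 with 7.82% ± 1.54 and 6.59% ± 0.719, and TRBV19 with 7.67% ± 2.38 and 8.17% ± 1.11. Among J segments TRBJ2-7 led with 25.4% ± 3.85 against 21.6% ± 1.15, followed by TRBJ1-1 (13.4% ± 4.41 and 11.2% ± 1.005) and TRBJ2-1 (11.4% ± 5.36 and 10.8% ± 1.79). In each pair the difference of the means was smaller than the spread of the TRAV12 values between libraries. Compared within libraries, TRBJ2-7 was higher in TRAV12 clones in 4 of 4. It stood at 29.1% and 27.6% in 5xFAD and 24.4% and 20.4% in 5xFAD;Cxcr6-/-, against 22.5%, 21.3%, 22.6% and 20.1% of other clones. The other segments named up to here had no common direction. edgeR called 0 of 34 TRB segments, a background of 0%, with 1 at an unadjusted p under 0.05, and DESeq2 called 0. That segment was TRBJ2-5, named after its value was seen, with 7.84% ± 4.34 of TRAV12 clones against 11.5% ± 1.02 of others (log2 fold change -0.72, SE 0.27, edgeR adjusted p = 0.280). By library it stood at 8.18%, 7.09%, 13.3% and 2.78% of TRAV12 clones, against 10%, 12.2%, 12.1% and 11.6% of others. Its direction was thus not common, being higher in TRAV12 clones of 5xFAD;Cxcr6-/- library 1.

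Clones with at least 2 TRA chains made up 20%, 23.6%, 14.3% and 16.9% of TRAV12 clones and 12.7%, 10.1%, 11.2% and 9.20% of other clones, higher for TRAV12 in 4 of 4 libraries. This count per clone is not balanced, because a clone with 2 chains has 2 chances to hold a TRAV12 chain and is then counted as a TRAV12 clone. Counted per chain, the rates overlapped. TRAV12 chains that shared their clone with another TRA chain made up 22.03%, 24.6%, 14.3% and 17.6% in the 4 libraries, against 25.6%, 21.5%, 21.5% and 18.7% of other chains. The difference was -2.14 ± 4.35 percentage points, with 1 of 4 libraries above 0 (exact sign-flip permutation p = 0.375).

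Neither the share of expanded clones nor the share of cells in them differed between TRAV12 and other clones by an amount that the 4 libraries resolve. Clones of at least 2 cells made up 20.9%, 20%, 20.4% and 13.6% of TRAV12 clones and 14.3%, 20.9%, 12.6% and 11.04% of other clones. TRAV12 was higher in 3 of 4 libraries, by a mean of 4.002 ± 3.95 percentage points (SD, n = 4; exact sign-flip permutation p = 0.25). The difference was 2.24 points in cells with 1 TRB and 1 TRA only (exact sign-flip permutation p = 0.625) and 1.71 points when expanded meant at least 3 cells (exact sign-flip permutation p = 0.375). Clone size depends on the number of cells, so the share of cells in expanded clones was also taken at 665 cells per library, the size of the smallest. It was then 47.1%, 47.4%, 38.1% and 32.6% for TRAV12 and 44.1%, 40.7%, 37.7% and 25.6% for other cells, higher for TRAV12 in 4 of 4 libraries by 4.25 ± 3.16 points, with 0.379 points in 5xFAD;Cxcr6-/- library 1 (exact sign-flip permutation p = 0.125).

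Between genotypes, the TRAV12 share of cells in expanded clones was 47.2% ± 0.178 in 5xFAD and 35.3% ± 3.89 in 5xFAD;Cxcr6-/- at 665 cells per library (SD, n = 2). Reads per contig were not matched, with a median of 3689 and 4044 reads per TRAV12 contig in 5xFAD and of 10340.5 and 5065 in 5xFAD;Cxcr6-/-, and their part in the difference was not tested. The groups did not overlap, and the difference of -11.9 percentage points exceeded the spread within either (exact two-sided permutation p = 0.333, the smallest possible). Other cells showed a difference of -10.7 points in the same direction, from 42.4% ± 2.42 to 31.7% ± 8.56. Without thinning the TRAV12 shares were 57.3%, 59.9%, 38.1% and 38.9%.

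**Figure D5:**
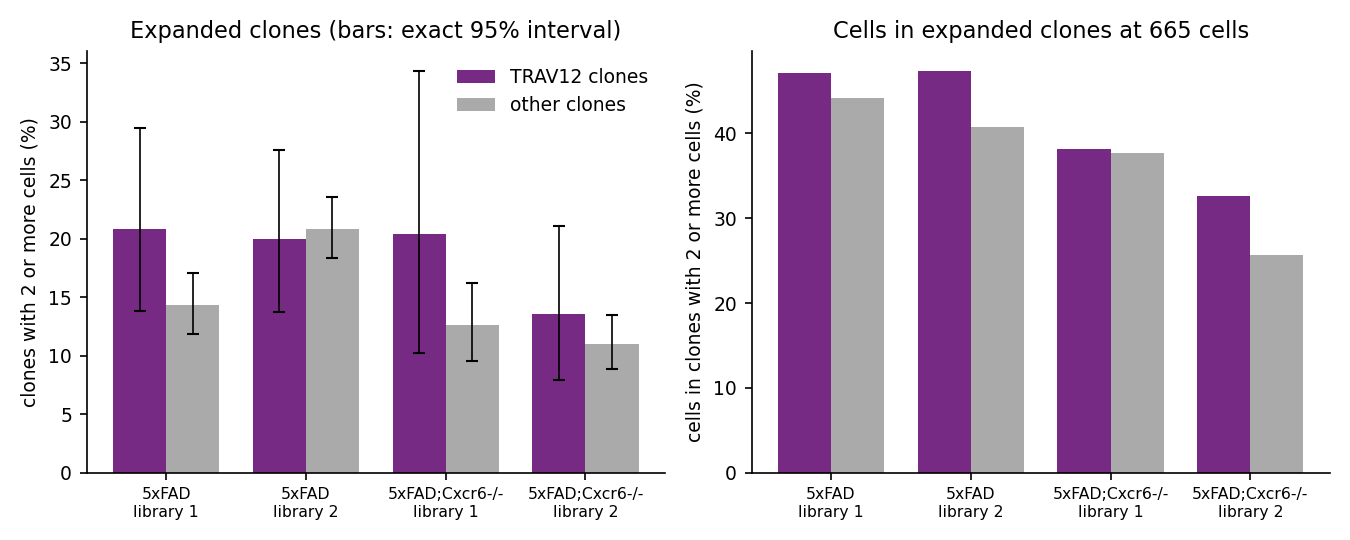
Left, clones of 2 or more cells as a percent of TRAV12 clones (purple) and of other clones without the iNKT-like ones (grey), with exact 95% binomial intervals; right, percent of cells in such clones after every library was brought to 665 cells. TRAV12 lies above the other clones in 3 of 4 libraries on the left, and on the right its 5xFAD values (47.1% and 47.4%) lie above its 5xFAD;Cxcr6-/- values (38.1% and 32.6%).

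No TRAV12 label was called between expanded and single clones. In edgeR with the library as a block, 1.32% of 152 segments were called, and 0 of the 6 TRAV12 labels were, also at an unadjusted p under 0.05. DESeq2 called 0 of them. The share of expanded clones was 20.9% of 67 TRAV12D-2 clones, 20% of 100 TRAV12D-3 clones, 19.6% of 56 TRAV12-1 clones and 18.8% of 133 TRAV12-2 clones. It was 11.3% of 53 TRAV12-3 clones and 11.1% of 18 TRAV12D-1 clones. The log2 fold change ran from -0.46 (TRAV12D-1, SE 1.02) to 0.62 (TRAV12D-2, SE 0.52).

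The largest TRAV12 clones differed in every chain and came from 3 labels. They are shown as the TRA junctions of the 2 largest clones of each 5xFAD library and the largest of each 5xFAD;Cxcr6-/- library, with bases that neither germline end encodes in capitals and the number of cells of each in the next sentences.
5xFAD library 1, TRAV12-2 and TRAJ56: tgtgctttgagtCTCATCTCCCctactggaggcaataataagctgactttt
5xFAD library 1, TRAV12-1 and TRAJ13: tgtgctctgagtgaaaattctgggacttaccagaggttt
5xFAD library 2, TRAV12-2 and TRAJ47: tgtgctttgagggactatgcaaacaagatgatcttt
5xFAD library 2, TRAV12-1 and TRAJ49: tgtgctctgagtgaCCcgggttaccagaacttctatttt
5xFAD;Cxcr6-/- library 1, TRAV12D-3 and TRAJ2: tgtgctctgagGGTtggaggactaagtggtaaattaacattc
5xFAD;Cxcr6-/- library 2, TRAV12D-3 and TRAJ24: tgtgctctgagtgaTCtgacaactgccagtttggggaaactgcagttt
In 5xFAD library 1 the TRAJ56 clone held 17 cells (0.957% of cells in clones with a TRA chain, 95% Clopper-Pearson interval 0.558 to 1.53), paired with TRBV26, and the TRAJ13 clone 15 cells, paired with TRBV13-1. In 5xFAD library 2 the TRAJ47 clone held 42 cells (1.92%, 1.39 to 2.59), paired with TRBV16 (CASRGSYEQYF), and the TRAJ49 clone 39 cells (1.78%, 1.27 to 2.43), paired with TRBV12-2. The junctions of the TRAJ47 clone (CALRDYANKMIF) and the TRAJ13 clone (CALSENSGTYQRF) have 0 non-germline bases, and that of the TRAJ56 clone has 10. The TRAJ13 amino-acid sequence was also present in 1 cell of 5xFAD;Cxcr6-/- library 1, with TRAV12-2. The 5xFAD;Cxcr6-/- library 2 clone held 25 cells (2.13%, 1.38 to 3.12), also with TRBV12-2, and the next there held 6 cells (TRAV12-2 and TRAJ57, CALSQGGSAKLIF). The largest other clones held 254, 76, 51 and 31 cells in the 4 libraries, so the largest TRAV12 clone was smaller than the largest other clone in each.

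In 5xFAD;Cxcr6-/- library 1 the largest TRAV12 clones were small. A pair of TRAV12D-3 clones held 4 cells each, the one with TRAJ2 shown above (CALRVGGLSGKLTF, with TRBV2) and one with TRAJ23 (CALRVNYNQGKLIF, with TRBV1), whose cells also carried a TRAV1 and TRAJ12 chain. The TRAJ2 chain was also present in a clonotype of 1 cell with TRBV1 and in one of 2 cells with no TRB chain. Its amino-acid sequence recurred in 5xFAD;Cxcr6-/- library 2 with a different nucleotide sequence, in 1 cell. Over all libraries, 7 TRAV12 chains appeared in more than 1 clonotype of a library, so cells with the same TRAV12 chain can stand in different deposited clonotypes.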

How the data were processed

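Single-cell T cell receptor libraries of 4 samples were analysed. Per the labels' protocols they were made with a 10x Chromium Immune Profiling v2 kit, and per the submitters' processing notes Cell Ranger 6.0 and the build mm10 were used. The deposited tables give counts of reads and UMIs per assembled contig, without normalization, per the file headers. Each of the 12792 contigs carried the marks for productive, full-length, high-confidence and cell-associated, and contigs without them were not analysed here. Aligner settings and the receptor reference are not given in the sources used here.

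Groups and replicate numbers came from the labels. Chains were distinct by V, J and CDR3 nucleotides, clones were the deposited clonotypes with a TRA chain, and expanded clones had at least 2 cells. V regions, germline ends and coordinates were matched to GENCODE vM21 on GRCm38, and 427 of 428 TRAV12 chains and 3285 of 3291 others had both germline ends. Segments with at least 10 clones were tested with edgeR 4.0.16 (quasi-likelihood, log clone total as offset, Benjamini-Hochberg adjustment over all segments, threshold 0.05). The SE of an edgeR fold change was derived as the absolute log2 fold change over the square root of the F statistic. DESeq2 1.42.0 was an alternative. Library values were compared with exact two-sided permutation tests in Python 3.11.15 with scipy 1.17.1. Intervals are 95% Clopper-Pearson and cover counting error only. Thinned shares are expected values at 665 cells per library.

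On 20 simulated data sets for the genotype comparison (dispersion 0.01), in which 20 segments were altered among 150 (151 for the larger fold), edgeR called 37% of those altered by 2-fold and 91.3% of those altered by 4-fold. The TRAJ test recovered 15% and 71.3% of these folds, with 12 of 43 segments altered, and the TRB test 43% and 88%, with 10 of 34 altered. The test of expanded clones recovered 32.3% and 76%. All of these shares hold for segments with at least 40 clones, and were not measured for those with fewer, such as TRAV12D-1. The dispersion of 0.01 was set for all of these simulations and not estimated from the libraries. Recovery at a wider spread between libraries was not measured.

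The family, the lists and the tests were chosen with earlier results of these data known. Named partners were every one called plus the 3 of each kind with the highest mean share. Named clones were the 2 largest per library, and named CDR3 sequences were those in at least 3 libraries; others are named as seen afterwards, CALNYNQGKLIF among them. The comparison of D-labelled with original segments was added after the data were seen. The replicate numbers were not taken as pairs. Deviations of same-numbered libraries from their group means had a correlation of -0.045 over 152 segments. With 2 libraries per group and few clones in many segments, this value cannot exclude a pairing.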

Additional observations from a re-analysis of the deposited data

Results flagged for a closer look

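In 4 of 22 differences within libraries that were examined (18.2%), both 5xFAD libraries went one way and both 5xFAD;Cxcr6-/- libraries the other. None of these differences between genotypes was tested, and the 4 are not separate results. Bases in neither V nor J are part of the CDR3, and the values on clone size in the next paragraph come from the same clones. How many such patterns would arise by chance was not worked out. The CDR3 of TRAV12 chains was longer than that of other chains by 0.06 and 0.14 residues in 5xFAD and shorter by 0.06 and 0.13 in 5xFAD;Cxcr6-/-, a change of -0.20 residues between the genotype means. Bases in neither V nor J went with it, at 0.08 and 0.38 against -0.22 and -0.29 bases relative to other chains, a change of -0.49.

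The cells per clone of D-labelled minus original clones were -0.652 and -0.672 in 5xFAD and 0.553 and 0.331 in 5xFAD;Cxcr6-/-, a change of 1.104. At 665 cells per library, the share of D-labelled cells in expanded clones was 33.1% and 33.0% against 55.0% and 54.6% of original cells in 5xFAD, and 63.6% and 39.8% against 24.4% and 24.3% in 5xFAD;Cxcr6-/-, a change of 49.1 percentage points. The largest original clones of 5xFAD held 17 and 42 cells, and the largest D-labelled clone of 5xFAD;Cxcr6-/- library 2 held 25, while library 1 had 13 D-labelled clones in all. The part of these clones in the difference was not tested.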

How the results depend on the processing

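Of 213 recomputed values, 192 kept their direction and their side of the threshold and 21 changed direction, each on a difference that was not called. The smallest exact permutation p is 0.333 for 2 against 2 libraries and 0.125 for 4 sign flips, both above the threshold of 0.05. For values with these tests the side of the threshold was therefore fixed in advance. The counts of calls stayed at 0 and carry no direction. No TRAV12 label, copy set, TRAJ or TRB partner became called under any alternative that was run.

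The family share of clones, at 0.69 percentage points between genotypes, turned to -1.05 without iNKT-like clones and ran from -0.81 to 2.18 when each library was left out in turn. The share of cells, at -0.38, turned to 0.0509 with cells of 1 TRB and 1 TRA only and ran from -2.61 to 1.84. The family log2 fold change of 0.12 turned to -0.0592 with DESeq2 and to -0.0587 without iNKT-like clones, and ran from -0.11 to 0.26. The CDR3 length difference of 0.002 residues turned to -0.0333 with each amino-acid sequence counted once, and ran from -0.0455 to 0.0475.

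Of the label fold changes, TRAV12D-1 turned to 0.67 with 1 TRB and 1 TRA only and to 0.15 with cells counted, and ran from -1.26 to 0.11 with each library left out. TRAV12D-3 turned to -0.0399 with DESeq2 and to -0.0434 without iNKT-like clones, and ran from -0.47 to 0.42. TRAV12-3 turned to 0.28 with cells and to 0.0426 with at least 3 UMIs, and ran from -0.31 to 0.12. TRAV12D-2 ran from -1.55 to 0.34 and TRAV12-1 from -0.61 to 0.0482 with each library left out. With cells counted TRAV12-1 kept its direction and went beyond that range, to -1.36 (SE 0.50). Its unadjusted edgeR p was then 0.0364 and its edgeR adjusted p 0.642. The cause of these turns was not tested.

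With the replicate number as a block, the family fold was 0.13 (edgeR adjusted p = 0.770) and 0 labels and 0 copy sets were called. Over all segments, the genotype calls (TRAV11 and TRAJ18) numbered 2 as reported but 0 without either 5xFAD;Cxcr6-/- library, without iNKT-like clones, or with cells counted, and 3 with 1 TRB and 1 TRA only. TRAV11 was likewise not called over families (0 of 19) without either 5xFAD;Cxcr6-/- library, and no copy set was called (0 of 40 or fewer) without any 1 library. The calls between expanded and single clones went from 2 to 6 with TMM scaling, to 0 with at least 3 cells, and to between 1 and 3 with each library left out. The removal of the largest clones and the alternatives for D-labelled against original chains were chosen after seeing the data. Values of TRAV12D-1 rest on 18 clones, and those of 5xFAD;Cxcr6-/- library 1 on 49 TRAV12 clones.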
